A study of Mus musculus with 2 samples.

Results

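The suppressor of cytokine signalling (SOCS) family was measured as Socs1 to Socs7 and Cish in the nucleoplasm of macrophages that had met a bacterial TLR4 ligand. The members were taken by gene name from the GENCODE M21 annotation, and all 8 were found among the 55536 annotated genes, of which 22028 were protein-coding. They carried 40 of the 141862 annotated transcript models. The cells were grown from the bone marrow of C57BL/6J mice and had Lipid A at 100 ng/ml for 40 min. Lipid A is the membrane anchor of lipopolysaccharide and the portion that TLR4 senses. RNA of the nucleoplasmic fraction was depleted of ribosomal RNA and sequenced in 2 libraries, replicates 1 and 2 of this 1 group. The labels name no genetic change, give no sex or age, and assign both replicates to the same donor identifier. The purity of the fraction was not tested. Replicate 1 started from 1 µg of RNA and replicate 2 from 500 ng, so input and replicate cannot be told apart. No unstimulated library was analysed here, so every value is a level and not a response. With 2 libraries of 1 group no test was possible, and the spread printed is that between these libraries, which may be partly technical.

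SOCS proteins are brakes on cytokine receptors. Each has an SH2 domain that docks on a phosphorylated receptor, kinase or adaptor, and a C-terminal SOCS box that recruits elongins B and C and a cullin ubiquitin ligase. SOCS1 and SOCS3 also carry a short kinase inhibitory region that blocks JAK kinases directly, and the genes Socs1, Socs3 and Cish are known targets of the STAT factors that they restrain. In macrophages SOCS3 is best known for limiting signals through the shared receptor chain gp130, and SOCS1 for limiting interferon signals.

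Promoter sequences are shown for Socs1, Socs3 and Cish, 3 members known as STAT targets, whose levels in these libraries lie far apart. They are RefSeq sequences on GRCm38.p6, read 5′ to 3′ on the strand of the gene. Promoters of 250 bases before to 50 after the RefSeq start were held for 4 members, Cish, Socs1, Socs3 and Socs4. For Socs3 (chr11:117969367-117969616, minus strand) the 250 bases before the start are shown, and the capitals mark the match to the STAT motif TTCNNNGAA, 154 bases upstream. For Socs1 (chr16:10785537-10785786, minus strand) the 250 bases before the start are shown, and the capitals mark a pair of overlapping matches to the interferon regulatory factor motif GAAANNGAAA, 83 and 77 bases upstream. For Cish (chr9:107296656-107296681, plus strand) only 26 bases are shown, and the capitals mark a pair of STAT motif matches that begin at bases 1 and 12 from the RefSeq start.
Socs3: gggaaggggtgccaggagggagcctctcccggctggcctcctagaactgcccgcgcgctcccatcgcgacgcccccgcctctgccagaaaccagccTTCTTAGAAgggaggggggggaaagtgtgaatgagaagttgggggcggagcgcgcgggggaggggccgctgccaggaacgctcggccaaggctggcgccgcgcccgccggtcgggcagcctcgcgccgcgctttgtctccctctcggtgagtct
Socs1: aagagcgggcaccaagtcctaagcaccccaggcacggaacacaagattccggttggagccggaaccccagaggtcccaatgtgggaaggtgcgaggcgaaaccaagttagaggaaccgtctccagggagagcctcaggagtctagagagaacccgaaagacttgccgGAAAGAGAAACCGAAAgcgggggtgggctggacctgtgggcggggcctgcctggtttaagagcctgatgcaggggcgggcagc
Cish: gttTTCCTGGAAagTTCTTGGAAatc

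Both strands were searched. The STAT motif was in 2 of the 4 members' windows and in 8.3% of all 32851 RefSeq promoters. The interferon motif was in 1 of the 4 windows and in 3.44% of all promoters, and it was chosen after the sequences had been read. A kappaB consensus was in 0 of the 4 windows and in 26.8% of all promoters, which says only that these letters are not in these windows. The RefSeq start of Socs3 lies 180 bases upstream of the start of its coding model Socs3-201, and that of Socs1 is the same base as in its models. The RefSeq start of Cish lies within the first exon of Cish-201 and 51 bases upstream of Cish-204.

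Socs3 was the most abundant member by a wide margin. TPM, a relative abundance corrected for transcript length, allows levels to be compared between genes. On this scale Socs3 (ENSMUSG00000053113.3, chromosome 11, 117966079 to 117970047, minus strand, mm10) stood at 177 TPM in replicate 1 and 101 TPM in replicate 2. These came from 8869 and 6674 expected counts. The FASTQ-derived tables gave it 74.5 and 52.9 TPM, still the highest of the family. The mean was 139 ± 53.8 TPM (SD, n = 2), which placed Socs3 at rank 249 of the 22028 protein-coding genes. It held 82.9% of the family's summed TPM of 213 in replicate 1 and 81.1% of 124 in replicate 2, a mean of 82.0% ± 1.30 (SD, n = 2). In bulk RNA, more cells with a transcript and more of it per cell cannot be told apart.

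A gene was called detected at 1 TPM or more in both libraries. By this rule 6 of the 8 members were detected, against 40.0% of all protein-coding genes. Socs3 alone had at least 10 TPM in both libraries, a level that 14.3% of protein-coding genes reached. These calls depend on the scale of TPM. Most of it went to genes under 200 nt effective length, spike-ins, phiX and other features outside annotated genes. With TPM rescaled without them, Socs3 stood at 474 and 388 TPM. All 8 members then passed 1 TPM in both libraries, against 49.1% of protein-coding genes of that length, and 5 passed 10 TPM, against 29.6%. The family median was 4.86 TPM, below the median of 7.42 TPM over the detected protein-coding genes and above that of 0.325 TPM over all protein-coding genes. The family as a whole took 12346 of 19498126 counts assigned to annotated genes in replicate 1 (0.0633%) and 9868 of 18398454 in replicate 2 (0.0536%).

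**Figure D1:**
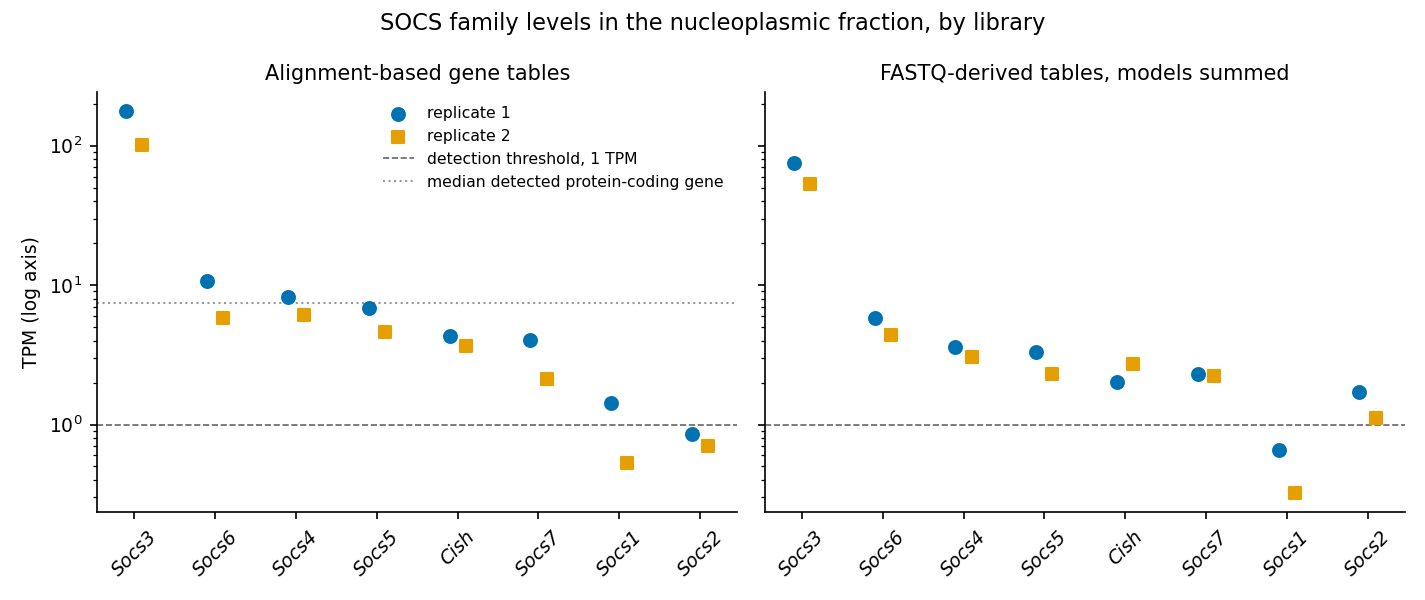
TPM of each SOCS family member on a log axis in replicate 1 (circles) and replicate 2 (squares), from the alignment-based gene tables (left) and from the FASTQ-derived tables summed over models (right). The dashed line is the detection threshold of 1 TPM and the dotted line the median of 7.42 TPM over detected protein-coding genes. Socs3 lies above 100 TPM in both alignment-based libraries, while the other 7 members lie at or below 10.7 TPM.

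The next member, Socs6, stood 16.5 times lower than Socs3 in replicate 1, and Socs4, the next in replicate 2, also stood 16.5 times lower. The libraries' ranges did not overlap between Socs3 and Socs6, between Socs5 and Cish, or between Socs7 and Socs1. They overlapped between Socs6 and Socs4, Socs4 and Socs5, Cish and Socs7, and Socs1 and Socs2. On this scale the ranges therefore do not separate these pairs. With TPM rescaled as above, Socs4 at 22.05 and 23.52 TPM lay clear of Socs5 at 18.35 and 17.79 TPM. Cish at 11.62 and 14.09 TPM likewise lay clear of Socs7 at 10.89 and 8.12 TPM. Socs6 and Socs4, and Socs1 and Socs2, still overlapped. Within each library Socs4 was above Socs5 and Cish above Socs7, while Socs6 was above Socs4, and Socs1 above Socs2, in replicate 1 only. The FASTQ-derived tables did not keep Socs5 apart from Cish. There Socs5 had 3.31 and 2.32 TPM and Cish 2.01 and 2.74 TPM, so the ranges overlapped and Cish was higher in replicate 2. Socs7 had 2.30 and 2.24 FASTQ-derived TPM, above Cish in replicate 1 only. By the same measure Socs6 at 5.8 and 4.4 TPM lay clear of Socs4 at 3.6 and 3.0 TPM. Socs2 at 1.70 and 1.11 TPM likewise lay clear of Socs1 at 0.651 and 0.322 TPM, in the order Socs2 above Socs1.

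Socs1, the interferon-restraining member with the same kinase inhibitory region as SOCS3, was among the scarcest. It stood at 1.43 TPM in replicate 1 and 0.53 TPM in replicate 2 (ENSMUSG00000038037.5, chromosome 16, 10782240 to 10785536, minus strand). Its 81 and 39 expected counts have exact 95% Poisson intervals of 64.3 to 101 and 27.7 to 53.3, which cover counting error only. Only replicate 1 lay above 1 TPM, so Socs1 was not called detected. Socs3 exceeded Socs1 124 times in replicate 1 and 190.0 times in replicate 2. By the FASTQ-derived tables Socs1 had 0.651 and 0.322 TPM, below 1 in both libraries.

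Cish and Socs2 encode the members most closely tied to STAT5 and to growth hormone and prolactin receptors. Cish (ENSMUSG00000032578.7, chromosome 9, 107296026 to 107302784, plus strand) stood at 4.33 TPM in replicate 1 and 3.66 TPM in replicate 2, from 366 and 409 expected counts. With an SD of 0.474 TPM (n = 2), the libraries were close together on the TPM scale. Socs2 (ENSMUSG00000020027.18, chromosome 10, 95385362 to 95417180, minus strand) stood at 0.85 and 0.70 TPM, from 32 and 38 expected counts. It fell short of 1 TPM in both libraries and is one of the family's 2 members not called detected, with Socs1.

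For Socs2 the number of assigned fragments depended on the table more than for any other member. The FASTQ-derived tables gave it 169 and 171 estimated counts, which is 5.29 and 4.49 times the alignment-based number. The same ratio had a median of 1.31 and 1.71 over detected protein-coding genes and a 95th percentile of 2.55 and 3.53. Most of these counts fell on Socs2-206, a retained_intron model of 3285 nt with no base inside the exons of the coding models. Socs2-206 spans 95387667 to 95392967, whereas the coding models lie within 95411490 to 95417180. On the minus strand it is thus downstream of all of them and in none of their introns. It had 96.2 and 108 FASTQ-derived counts, against 2.15 and 6.51 in the alignment-based tables. The authors' posterior mean TPM of Socs2 was also higher, at 2.32 and 1.91, and its credibility interval of 1.36 to 3.37 in replicate 1 and 1.14 to 2.81 in replicate 2 lay wholly above the TPM. Socs3 too had a TPM outside its interval in replicate 1, where 177 TPM lay above 165 to 173, but not in replicate 2. By FASTQ-derived TPM, 1.70 and 1.11, of which Socs2-206 held 0.552 and 0.412, Socs2 would pass the detection threshold.

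Socs4 and Socs5 are a related pair whose products act on the epidermal growth factor receptor. Socs4 (ENSMUSG00000048379.9, chromosome 14, 47276931 to 47296102, plus strand) stood at 8.22 TPM in replicate 1 and 6.11 TPM in replicate 2, from 1180 and 1163 expected counts. Socs5 (ENSMUSG00000037104.9, chromosome 17, 87107679 to 87137839, plus strand) stood at 6.84 and 4.62 TPM, from 485 and 462 counts. Socs4 was the higher of the pair within each library, 1.20 and 1.32 times, but the pair's ranges overlapped on the deposited TPM scale. Counts do not compare across genes of unequal length, and the coding model of Socs4 is 6877 nt long, against 4648 nt in Socs5-201.

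Socs6 and Socs7 have long N-terminal regions and are linked to receptor tyrosine kinase and insulin signals. Socs6 (ENSMUSG00000056153.15, chromosome 18, 88665224 to 88927481, minus strand) stood at 10.7 TPM in replicate 1 and 5.78 TPM in replicate 2, from 849 and 672 expected counts. Socs7 (ENSMUSG00000038485.5, chromosome 11, 97362551 to 97398542, plus strand) stood at 4.06 and 2.11 TPM, from 484 and 411 counts. Both were lower in replicate 2 on the TPM scale, as were all 8 members. Socs7 had an effective length of 5549 nt (replicate 1) or 6785 nt (replicate 2), and its short model Socs7-202 held TPM in replicate 1 only in the alignment-based table.

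The lower TPM values of replicate 2 were not particular to the family. The median detected protein-coding gene had a replicate 2 TPM of 0.714 times its replicate 1 TPM (log2 -0.49), and genes of at least 200 nt effective length held 26.0% of TPM in replicate 2 and 37.3% in replicate 1. By FPKM, 5 of 8 members were lower in replicate 2. After TMM scaling of the counts, 4 of 8 members had a log2 ratio of replicate 2 over replicate 1 below 0, against 47.8% of protein-coding genes with a mean count of at least 10. With FASTQ-derived counts it was 6 of 8, Socs2 and Socs5 included. For FPKM and for FASTQ-derived counts no share over all protein-coding genes is given. Those member counts are therefore not read as a trait of the family. No member was at -1 or below, where 1.62% of those genes lay, and 0 members were at 1 or above, where 1.19% lay.

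Within this scaling Socs1 stood furthest from 0. Its log2 ratio was -0.92, with a counting interval of -1.55 to -0.39, at percentile 2.57 among the 1519 protein-coding genes with counts within 1.5-fold of its own. Socs3, with the most counts behind it, was placed more narrowly. Its log2 ratio was -0.31, with a counting interval of -0.36 to -0.27, at percentile 13.0 among 308 genes of similar count. Socs2 had 0.33 with an interval of -0.37 to 1.07, which spans 0. Socs4 and Socs5 were near 0 at 0.08 and 0.03. Socs6 had -0.24 with an interval of -0.39 to -0.09, and Cish 0.26 with an interval of 0.05 to 0.47, neither of which spans 0. These intervals cover counting error only. Among 1686 and 1837 genes of similar count, Socs6 lay at percentile 14.5 and Cish at percentile 81.5, inside the ordinary spread between the libraries. Socs7 had -0.14 with an interval of -0.33 to 0.055.

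**Figure D2:**
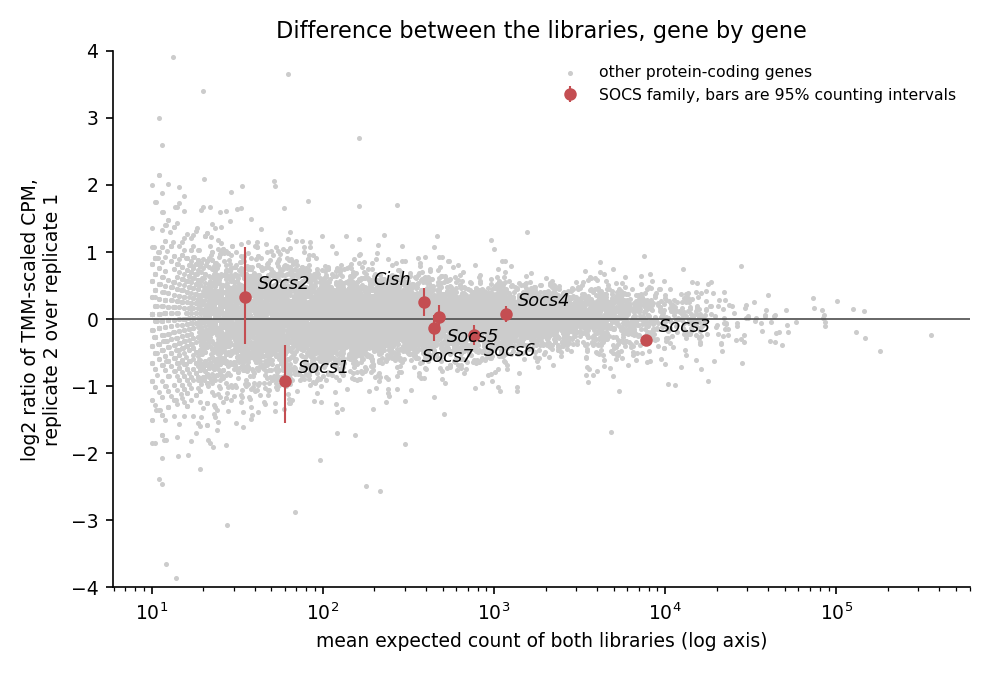
Log2 ratio of TMM-scaled CPM, replicate 2 over replicate 1, against the mean expected count of both libraries on a log axis, for protein-coding genes with a mean count of at least 10. Red points are SOCS family members with 95% counting intervals and grey points the other genes. Socs1, at -0.92, is the member furthest from 0, and no member reaches 1 in either direction.

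The models that carry each gene's TPM differed within the family. The 40 models comprised 24 annotated protein_coding, 14 processed_transcript, 1 retained_intron and 1 nonsense_mediated_decay, and 14 of them had 0 counts in both alignment-based libraries. Socs1 and Socs4 have coding models only. The coding model Socs3-201 held 99.4% of the TPM of Socs3 in replicate 1 and 99.6% in replicate 2, with 8862 and 6671 counts. No annotated Socs3 model keeps the intron of Socs3-201, so unspliced Socs3 RNA has no model of its own in these tables. Socs6 was 98.2% and 96.6% coding, shared mainly between Socs6-203 at 4.59 and 2.10 TPM and Socs6-201 at 3.89 and 2.84 TPM. The order of these last models differed between the libraries.

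Cish was the exception, with most of its TPM outside coding models. Its coding share was 28.9% in replicate 1 and 29.0% in replicate 2, a mean of 29.0% ± 0.122 (SD, n = 2). It was the 1 member with over 50% of TPM in other models in both libraries, a property of 17.7% of detected protein-coding genes. The median share outside coding models was 25.9% over detected protein-coding genes. The model that carried it was Cish-202, a processed_transcript of 4697 nt at 3.08 and 2.59 TPM, from 297 and 331 counts. Of its bases, 2772 (59.0%) lie outside every exon of the coding models, most of them in a long first exon that runs through most of the first intron of those models. The coding models Cish-204 and Cish-201 stood at 0.97 and 0.78 TPM and at 0.28 and 0.28 TPM. Whether the fragments assigned to Cish-202 came from that model or from Cish RNA not yet spliced was not tested.

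**Figure D3:**
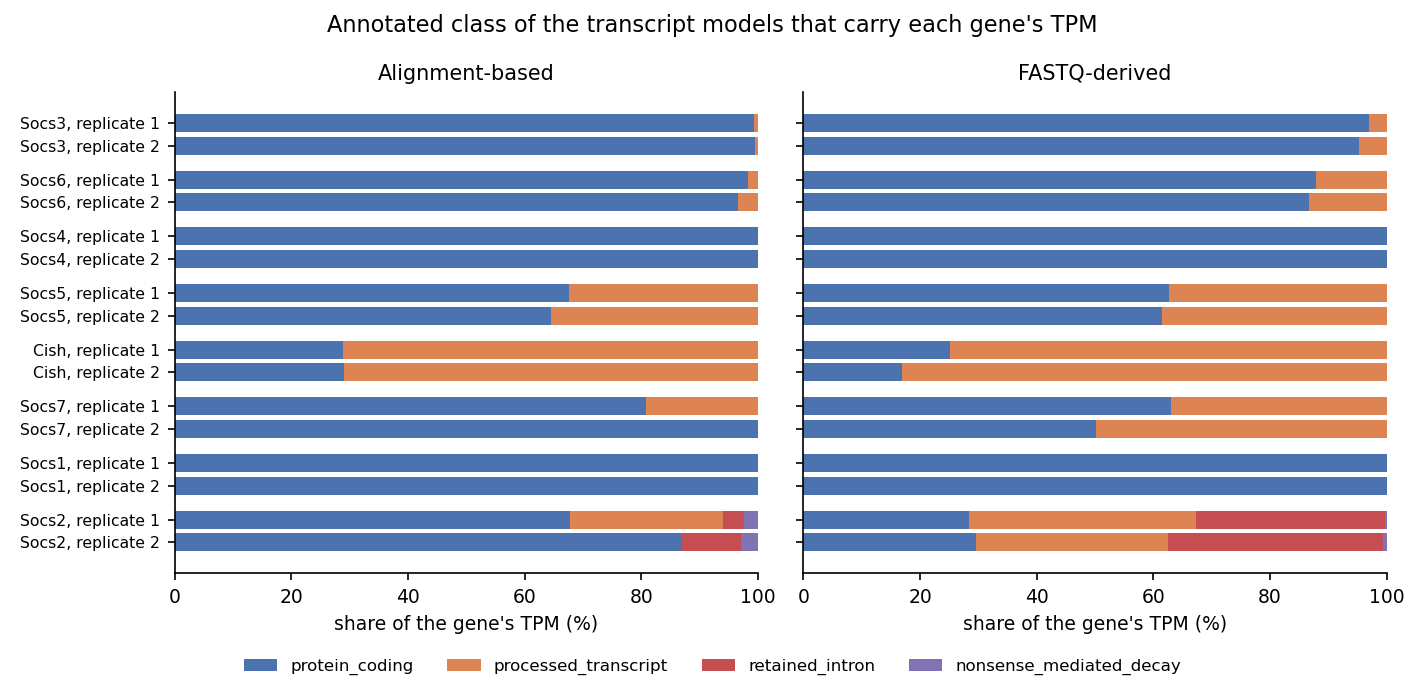
Share of each member's TPM, in percent, by the annotated class of the models that carry it, for replicates 1 and 2, in the alignment-based tables (left) and the FASTQ-derived tables (right). Cish has 28.9% and 29.0% in protein_coding models on the left, and Socs2 has a large retained_intron share on the right only.

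Socs5 had a smaller share of the same kind. Its coding models held 67.7% of TPM in replicate 1 and 64.6% in replicate 2, and Socs5-202 held the rest at 2.21 and 1.64 TPM from 86 and 84 counts. That processed_transcript model is 2019 nt long and overlaps the first exons of Socs5-201, but 1768 nt (87.6%) of it lie in introns of the coding models and none in the exon with the coding sequence. Socs5-201 stood at 4.08 and 2.99 TPM. In Socs7 the short processed_transcript Socs7-202 took 0.78 TPM in replicate 1 from 5.07 counts and 0 TPM in replicate 2, so the coding share was 80.7% in replicate 1 and 100% in replicate 2. By counts the coding share of Socs7 was 98.9% and 100%. The FASTQ-derived tables gave Socs7-202 TPM in both libraries, 0.852 and 1.11, and so a coding share of 63.0% and 50.1%.

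**Figure D4:**
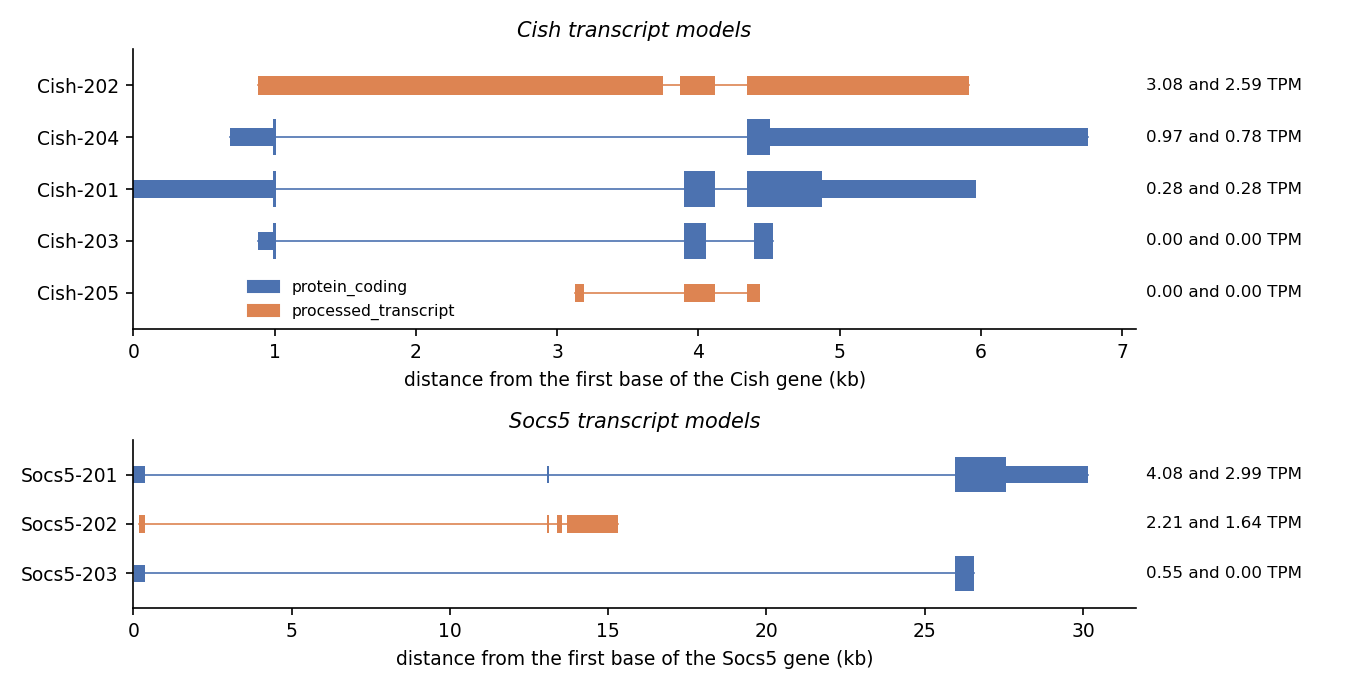
Exons (boxes) of the Cish and Socs5 transcript models, drawn to scale in kb from the first base of the gene in the direction of transcription, with coding sequence as tall boxes and introns as lines. The TPM of each model in replicates 1 and 2 is given at the right. Cish-202, with the most TPM of Cish, has a first exon that runs into the first intron of Cish-204 and Cish-201, and Socs5-202 ends before the exon with the coding sequence.

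The FASTQ-derived tables put the coding share of Cish at 25.1% and 16.8%, that of Socs5 at 62.6% and 61.5% and that of Socs2 at 28.4% and 29.7%. For Socs2 the alignment-based share was 67.9% and 87.0%, on 32 and 38 counts. For Socs1 both tables assigned everything to coding models but chose between them differently. Socs1-201 had 47 and 39 of the alignment-based counts, while Socs1-202 had 80.6 and 74 of the FASTQ-derived counts. Annotated genes that overlap members had few counts. The antisense gene Gm17041 and the pseudogene Gm17040, which overlap Cish on the other strand, had 0 counts in both libraries, and the 3 pseudogenes within Socs6 had at most 1 count.

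The main coding models differed in layout. Socs7-201 has 9 coding exons, and the main coding models of Socs2 and Cish have 2. That of Cish, Cish-204, held only 14.45% and 13.8% of the gene's counts, and Cish-201 has 3 coding exons. The protein was encoded in 1 coding exon in 5 of the 8 members, Socs1, Socs3, Socs4, Socs5 and Socs6, against 4.54% of the 8586 detected genes with a 3′ untranslated region. The pentamer ATTTA, the core of AU-rich elements that shorten mRNA life, was counted in the 3′ untranslated region of each main coding model. Socs4 had 17 in 5182 nt, or 3.28 per kb, above 82.5% of detected genes. Socs3 had 4 in 1474 nt, or 2.71 per kb, above 75.6%, and Socs6 had 10 in 4019 nt, or 2.49 per kb, above 72%. Socs1 had 0 in 1990 nt. The remaining members, Socs2, Socs5, Cish and Socs7, had 1.72, 1.54, 1.33 and 0.965 per kb, around the median of 1.38 over detected genes. A match is a description of the letters and says nothing of RNA life in these cells.

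The family was then set beside the proteins it acts with or on. By the same rule 40.0% of all protein-coding genes were detected. Each of the 11 JAK and STAT genes passed 1 TPM in both libraries, and their median was 24.2 ± 7.26 TPM (SD, n = 2 libraries). Among them Stat6 stood at 69.5 ± 3.07 TPM and Stat2 at 47.2 ± 14.9 TPM. Of 24 receptor chains, 17 were detected, with a median of 23.8 ± 7.22 TPM. The highest were Csf1r, the receptor of the macrophage growth factor CSF1, at 378 ± 99.1 TPM, the interferon gamma receptor chain Ifngr1 at 111 ± 44.6 TPM and the interleukin 10 receptor chain Il10ra at 108 ± 34.0 TPM. Prlr, the prolactin receptor, had 0 counts in both libraries, which allows up to 0.0605 and 0.0459 TPM.

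Of 13 ligands of these receptors, 10 were detected, with a median of 5.83 ± 0.283 TPM. The highest were Il10 at 136 ± 13.0 TPM, Csf1 at 109 ± 2.23 TPM and Igf1 at 102 ± 27.0 TPM. Ifng had 0 counts, which allows up to 0.237 and 0.186 TPM. All 10 partners in the ubiquitin ligase were detected, with a median of 8.54 ± 1.44 TPM. The ligase Arih2, which acts with neddylated CUL5, stood at 177 ± 6.82 TPM, the NEDD8-conjugating enzyme Ube2f at 87.7 ± 12.3 TPM and elongin C, Eloc, at 12.5 ± 1.79 TPM.

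Each of the 12 other brakes on the pathway was detected, and their median was 14.5 ± 3.14 TPM, led by the phosphatase Ptprc (CD45) at 259 ± 73.1 TPM, the ubiquitin ligase Cbl at 43.2 ± 11.5 TPM and the phosphatase Ptpn1 at 31.1 ± 10.4 TPM. Of 8 TLR4-pathway and insulin-pathway proteins that SOCS proteins bind, 6 were detected, with a median of 10.1 ± 2.03 TPM and Rela at 47.0 ± 7.83 TPM, Irak1 at 26.0 ± 7.40 TPM and Irs2 at 22.4 ± 3.32 TPM. Of 27 other genes whose products have a SOCS box, 12 (44.4%) were detected, near the 40.0% of all protein-coding genes, with a median of 0.20 ± 0.0283 TPM. Wsb1 at 312 ± 63.6 TPM was above Socs3, while Wsb2 stood at 36.3 ± 4.40 TPM, Neurl2 at 14.4 ± 8.72 TPM, and Asb12, Asb16, Asb18 and Asb9 had 0 counts in both libraries, with upper limits between 0.0401 TPM (Asb16, replicate 2) and 0.193 TPM (Asb12, replicate 1).

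**Figure D5:**
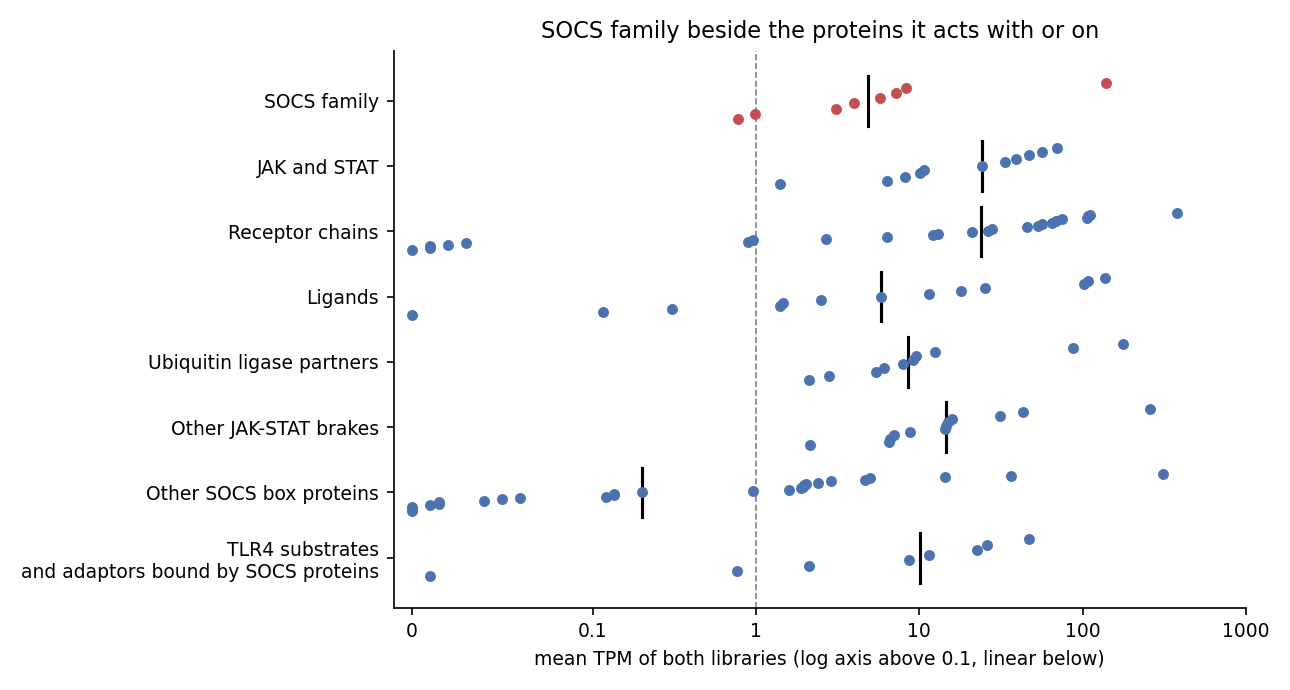
Mean TPM of both libraries for each SOCS family member (red) and for the genes of 7 lists of interacting or related proteins (blue), on an axis that is logarithmic above 0.1 TPM and linear below. Black bars are the medians of the lists and the dashed line marks 1 TPM. The SOCS family has a median of 4.86 TPM with Socs3 at 139 TPM apart from the others.

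The protein-coding genes nearest in level to Socs3, by distance in log2(TPM + 1) over the 2 libraries, were Apobec1 at 180.0 and 101 TPM, Slc43a2 at 173 and 98.3 TPM and Lipa at 172 and 98.6 TPM. The labelled cell type was checked on 8 macrophage markers, all detected, with a summed 3505 TPM in replicate 1 and 2336 TPM in replicate 2. Of 29 markers of 7 other cell types, neutrophils, T, B and NK cells, dendritic cells, fibroblasts and erythroid cells, none was detected. Their summed level was at most 2.95 TPM per cell type, and 12 of them had 0 counts in both libraries. These calls hold on the deposited TPM scale and were not repeated with TPM rescaled as above. Markers near 1 TPM, such as S100a9 at 1.34 and 0.87 TPM, could pass there.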

How the data were processed

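Each library had an alignment-based gene table and transcript table and a FASTQ-derived transcript table, made by the authors on mm10 with GENCODE M21, per the labels. For aligner, quantifiers and strand setting, nothing is given in the sources used here. The deposited tables hold, per the file headers, expected counts or estimated counts, TPM, FPKM, a posterior mean TPM with credibility bounds, and each model's percent of its gene. The deposited TPM is scaled over every feature, spike-ins and phiX included. Totals were 19630046 and 18434601 expected counts (alignment-based) and 26929533 and 33536257 estimated counts (FASTQ-derived). Features outside annotated genes held 0.672% and 0.196% and were left out of library sizes.

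Expected counts were rounded and scaled with TMM in edgeR 4.0.16 (R 4.3.3) over genes with a mean count of at least 10, with a prior count of 2. The script was tested on simulated data. DESeq2 1.42.0 size factors were an alternative. Other values came from Python 3.11.15 with pandas 2.3.3 and SciPy 1.17.1. Counting intervals (95%) and limits from 0 counts (3 counts per library) cover counting error only, as reads are not independent molecules. No group was compared and no p-value was computed. The members, the partner and marker lists and the settings were chosen with earlier results of these data known. Every member was named, as were the 3 highest genes of each partner list, up to 4 at 0 counts, and the 3 genes nearest to Socs3. A further gene that this rule names is not reported here. Protein sequences were not used here.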

Additional observations from a re-analysis of the deposited data

How the results depend on the processing

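The number of members detected was 6 by alignment-based TPM and by FPKM, 7 by FASTQ-derived TPM and by posterior mean TPM, 8 at 0.5 TPM and 3 at 5 TPM. It was 8 where TPM was rescaled without genes under 200 nt effective length, an alternative chosen after seeing the data, as was the order of members by FASTQ-derived TPM. It ranged from 6 without replicate 1 to 7 without replicate 2, where Socs1 passed. Shares over all protein-coding genes are given only for alignment-based TPM in both libraries, deposited or rescaled, at 1 and 10 TPM. The other counts of members show only how the call depends on the setting. The Socs3 share of the family's summed level was 82.0%. It was 78.0% by FASTQ-derived TPM, 69.7% by expected counts, uncorrected for length, and 84.8% over protein_coding models only, and it ranged from 81.1% to 82.9% with either replicate left out. Of 56 recomputed levels on the log2(TPM + 1) scale, 20 moved by more than the spread between replicates, 8 of them where TPM was rescaled, which put Socs3 at 8.75, against 7.07. The 56 include 8 levels without replicate 1 and 8 without replicate 2, which could not move. Leaving out 1 of 2 libraries shifts a mean by less than their spread. Of 40 recomputed log2 ratios between replicates, 6 moved, all on the TPM + 1 scale, where all 8 ratios were below 0. With FASTQ-derived counts, Socs2 and Socs5 were below 0 as well, at -0.32 and -0.13, against 0.33 and 0.03 with alignment-based counts. Of 16 coding shares, 9 moved. The causes were not tested. No paired analysis was possible because there was 1 group. Depth limits Socs1 and Socs2 most, with at most 81 and 38 expected counts in a library.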
